A study of Mus musculus with 12 samples.

Results

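The 3 libraries described here were made from wild-type mouse embryonic fibroblasts on day 6 of adipocyte differentiation. They were chosen by the WT in their titles and are 3 of the 12 libraries of the series. The other 9 come from cells labelled Gadd45a-KO, Ing1-KO or DKO and were used only for a check of labels. The fibroblasts were of the C57BL/6N strain background and came from male embryos at E15.5, obtained by interbreeding mice that lack Gadd45a with mice that lack Ing1. They had been grown for 4 passages. After confluence the cells received 0.5 mM 3-isobutyl-1-methylxanthine (IBMX, which raises cAMP), 1 µM dexamethasone (a glucocorticoid), 2 µM rosiglitazone (an agonist of PPARγ) and 10 µg/ml insulin for 48 h. Insulin alone followed, with fresh medium every other day. The labels number the replicates but do not say whether each came from its own embryo or culture, so the spread below may be partly technical.

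Fibroblasts isolated from embryos are a mixed mesenchymal population that can also hold resident macrophages. The hormone cocktail induces Cebpb and Cebpd first, which then act with PPARγ and Cebpa to switch on the genes of the fat cell. These include lipid droplet proteins, fatty acid transporters, enzymes that build and break down triglyceride, and secreted adipokines. Cells that do not differentiate keep a fibroblast programme of collagens and matrix proteins, and many take on contractile features in culture. RNA of the whole dish was sequenced, so fewer cells of a type and less RNA per cell cannot be told apart.

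Reads assigned to genes numbered between 46310012 in replicate 2 and 50874502 in replicate 3. Levels are given as CPM, the reads of a gene per 1e6 of these reads. A count of 3 reads, taken as the floor, corresponded to between 0.0590 and 0.0648 CPM. Poly(A) RNA was read without molecular identifiers and without keeping strand, so floors cover counting error only and overlapping genes on opposite strands cannot be separated. Of the targeted genes, Ing1 was at 45.0 ± 2.43 CPM (SD, n = 3) in WT. It was at 1.24 ± 0.329 in the libraries labelled Ing1-KO and 0.909 ± 0.223 in those labelled DKO. Gadd45a was at 15.7 ± 1.86 CPM in WT, 143 ± 2.104 in the libraries labelled Gadd45a-KO and 139 ± 0.299 in those labelled DKO. Reads over the whole gene were thus raised, not lost, in both of these groups. Such counts cannot show whether the transcript was intact, and the reason for the rise was not tested. In the libraries labelled Ing1-KO, Gadd45a was at 15.8 ± 2.59 CPM, which overlapped WT. The genes Ddx3y, Eif2s3y, Uty and Kdm5d of the Y chromosome were read in all 3 WT libraries, with Ddx3y between 149 and 162 CPM, as the label of male embryos has it. Xist, which is made from an inactive X, was also read, at 4.02, 0.281 and 0 CPM in replicates 1, 2 and 3. Whether any female cells were present was not tested.

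At day 6 the transcriptome was that of a matrix-producing culture with a fat programme beside it. Col1a1 (type I collagen) was the second most abundant gene by CPM, at 16212, 14463 and 14186 CPM in replicates 1, 2 and 3. Fabp4, the fatty acid carrier of fat cells, ranked 87th at 1207, 624 and 1166 CPM. Adipoq, which encodes adiponectin, ranked 1492nd at 162, 68.7 and 151 CPM. Pparg, the master regulator of fat cell formation, ranked 8032nd at 20.4, 10.9 and 19.4 CPM. Adgre1, which encodes the macrophage surface protein F4/80, ranked 536th at 238, 278 and 280 CPM. All 3 fat genes were lowest in replicate 2, whereas Col1a1 was lowest in replicate 3 and Adgre1 in replicate 1.

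Genes of different length are compared as RPKM, the CPM divided by the exon length in kilobases, with lengths from a later GENCODE annotation on GRCm38. On that scale Col1a1 (ENSMUSG00000001506, chromosome 11) was at 2278 ± 167 RPKM and Fabp4 (ENSMUSG00000062515, chromosome 3) at 223 ± 72.5 RPKM. Adipoq (ENSMUSG00000022878, chromosome 16) was at 92.2 ± 36.9 RPKM, Adgre1 (ENSMUSG00000004730, chromosome 17) at 81.9 ± 7.36 RPKM and Pparg (ENSMUSG00000000440, chromosome 6) at 5.73 ± 1.76 RPKM. The library values of Adipoq, from 49.8 to 117 RPKM, overlapped those of Adgre1, from 73.4 to 86.4 RPKM. The order of Col1a1, Fabp4, Adipoq and Pparg did not depend on the library. The length joins all annotated exons of a gene, 4.489 kb for Fabp4. Genes read mainly from a shorter transcript are therefore given too low, and the transcripts in use were not tested.

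Reads were spread over many genes with a steep top. In each library 13055.7 ± 63.0 genes (SD, n = 3) reached 1 CPM, 9461 ± 26.3 reached 10 CPM, 2042 ± 6.51 reached 100 CPM and 87.7 ± 0.577 reached 1000 CPM. Across all 3 libraries 12838 genes were at 1 CPM or more. The most abundant gene took 1.75% of gene reads, the first 10 took 11.05%, the first 100 took 27.4% and the first 1000 took 55.9%. Genes for collagens held 7.50 ± 0.332% of gene reads, protein-coding genes of the mitochondrial genome 1.85 ± 0.0986% and ribosomal protein genes 1.17 ± 0.0485%. Long non-coding RNA held 0.793 ± 0.0393%, and the imprinted RNA H19 was at 2429 ± 328 CPM. All of these shares leave out reads that fit several places, and the effect of that on each class was not tested.

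**Figure D1:**
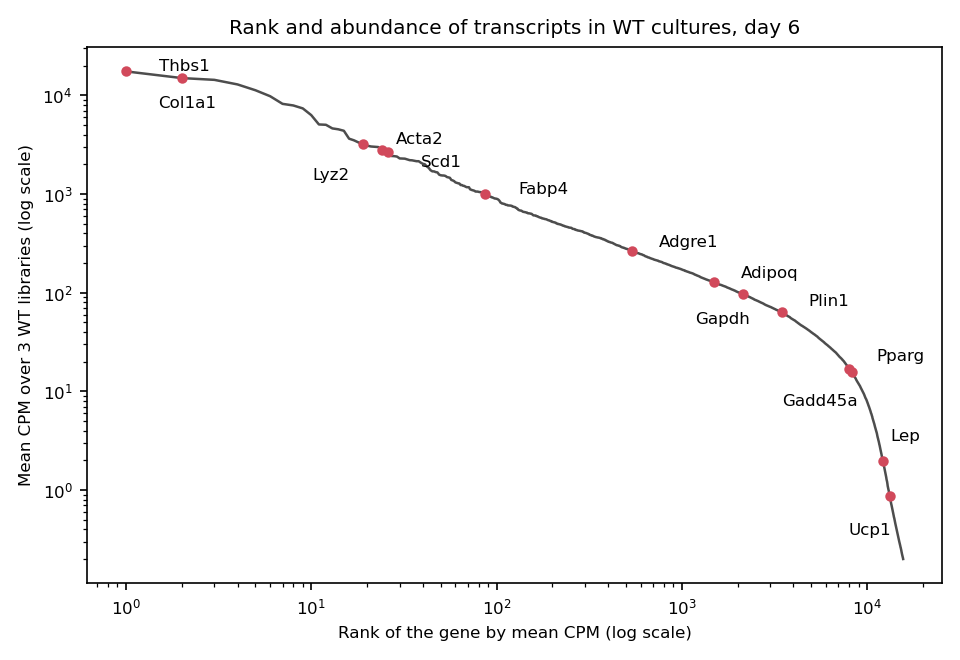
Mean CPM over the 3 WT libraries (vertical, log scale) against the rank of each gene by that mean (horizontal, log scale), with 14 named genes as red points and the least abundant genes not drawn. Thbs1 and Col1a1 lie at the top, Fabp4 near 1000 CPM at rank 87, and Pparg at 16.9 CPM at rank 8032.

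Proteins of the extracellular matrix led the ranking. Thbs1, which encodes the matrix glycoprotein thrombospondin 1, was the most abundant gene at 16862, 17826 and 17744 CPM. The collagen chains Col1a1, Col1a2 (14342 ± 629 CPM), Col3a1 (12891 ± 761 CPM) and Col12a1 (9790 ± 251 CPM) stood among the first 6 genes, together with Postn (periostin), at 10581, 12330 and 10841 CPM. Sparc (osteonectin, 8193 ± 194 CPM), Fn1 (fibronectin, 7892 ± 454 CPM), Bgn (biglycan, 7369 ± 120 CPM) and Lox (lysyl oxidase, which cross-links collagen, 6298 ± 202 CPM) completed the first 10. The next 15 held Col5a1, Col5a2, Col6a3, Fbln2, Tnc, Fbn1, Fstl1, Lrp1 and Vim beside mt-Co1, Eef1a1, Pkm, Flna, Acta2 and Lyz2. All 10 leading genes differed by less than 1.2-fold between their highest and lowest library, Postn by 1.16-fold and Col1a1 by 1.14-fold.

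Per length the order changed, because matrix messages are long. Of the 25 highest genes by RPKM, 8 were mitochondrial, led by mt-Co1 at 3279 ± 128 RPKM. Thbs1 (2878 ± 88.0 RPKM), Col1a1, Sparc (2163 ± 51.1 RPKM) and Lyz2 (2120 ± 154 RPKM) followed. Lyz2 encodes the lysozyme of macrophages and ranked 7th per length and 24th by CPM. Acta2, the smooth muscle actin, was at 1450 ± 185 RPKM, Lgals1 (galectin 1) at 1365 ± 44.2 RPKM and Tagln (transgelin) at 853 ± 82.4 RPKM. By joined exon length the best placed fat gene was Scd1, the stearoyl-CoA desaturase, which ranked 40th at 662, 356 and 619 RPKM. By CPM Scd1 ranked 26th. Some widely used reference genes read low: Gapdh was between 89.0 and 102 CPM and Ppia between 10.5 and 11.6 CPM, whereas Actb was at 2293 ± 126 CPM. Alignments that were not unique, which do not count toward any gene, were 16.5 ± 0.269% of all entries in the files, and their part in the values of Gapdh and Ppia was not tested.

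Marker lists showed which other cell types the cultures could hold. The fibroblast and matrix list of 40 genes summed to between 152484 and 157677 CPM, or 15.55% of all gene reads. The contractile list of 29 genes summed to between 16711 and 19531 CPM, the adipocyte list of 32 genes to between 3949 and 6827 CPM, and the macrophage list of 30 genes to between 5320 and 6056 CPM. These sums weigh long and abundant genes more, so they do not rank the cell types. All of the 40, 29 and 30 genes of the fibroblast, contractile and macrophage lists reached a mean of 1 CPM, as did 31 of the 32 adipocyte genes.

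Among markers of other lineages, the lists for T cells (8 genes), B cells (6), neutrophils (9), mast cells (7), erythroid cells (8) and hepatocytes (10) summed to at most 2.02 CPM in any WT library, with Cd3e, Ly6g, S100a9, Mcpt4, the globin genes and Ttr at 0 reads in all 3. Reads that fit several places were not counted, so 0 reads does not show absence for genes with close copies, such as the globin genes. Ighm alone held 82.0% of the B cell sum. The endothelial list summed to between 9.37 and 11.05 CPM, with the junction gene Cldn5 at 0 and Pecam1 at 0.395 ± 0.135 CPM. The epithelial list summed to between 14.0 and 15.9 CPM, mostly Krt19, with Epcam at 0.0141 ± 0.0122 CPM. Skeletal muscle genes summed to between 23.1 and 27.6 CPM, of which the actin gene Acta1 made up 86.4%, while Myod1 was at 0.0141 ± 0.0122 CPM. Markers of neurons summed to between 112 and 114 CPM, of which the tubulin gene Tubb3 held 76.6%. Glial and neural crest markers summed to between 35.4 and 43.7 CPM and included the transcription factor Sox10 at 8.11, 6.22 and 5.94 CPM.

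Skeletal markers were uneven. In the bone list Spp1 (osteopontin), which macrophages also make, was at 1372 ± 45.3 CPM and held 98.0% of the sum, Runx2 was at 17.5 ± 0.219 CPM and the osteocalcin genes Bglap and Bglap2 had 1 read each in the 3 libraries together. Reads that fit both osteocalcin genes are counted for neither, so their low counts do not show absence. Ibsp, which encodes bone sialoprotein, had 1, 257 and 5 reads in replicates 1, 2 and 3, or 0.0208, 5.55 and 0.0983 CPM. Replicate 2 thus stood apart for Ibsp, and replicates 1 and 3 lay near the floor. Cartilage genes summed to between 552 and 607 CPM, of which Col11a1 held 91.2%, while the chondrocyte collagen gene Col2a1 was at 5.93, 7.19 and 3.77 CPM. Col9a1, another chondrocyte collagen, had 0, 0.669 and 0.0393 CPM, again with replicate 2 highest. For the X chromosome, the non-coding RNA Xist, which is made from an inactive X, had 193, 13 and 0 reads (4.02, 0.281 and 0 CPM), so that replicate 1 stood apart.

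**Figure D2:**
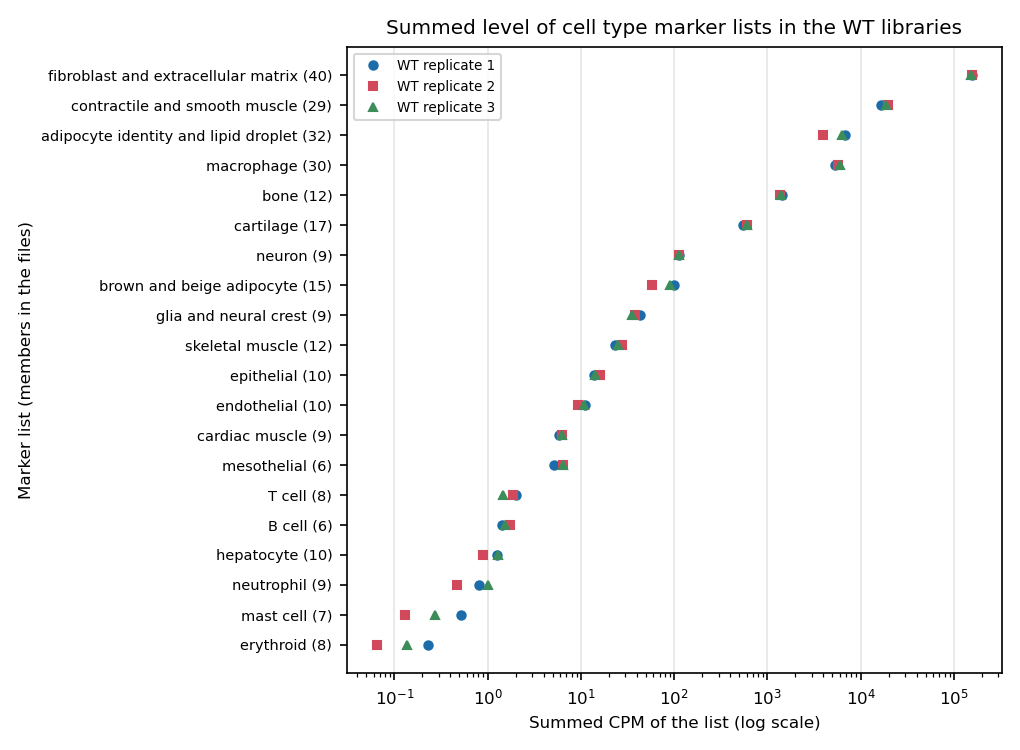
Summed CPM of 20 cell type marker lists (horizontal, log scale), with 1 symbol for each WT library and the number of genes per list in brackets. The fibroblast, contractile, adipocyte and macrophage lists lie at the top right, the lists for T cells, B cells, hepatocytes, neutrophils, mast cells and erythroid cells at or below 2.02 CPM, and replicate 2 lies to the left for the adipocyte list.

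The fibroblast and matrix list also held enzymes that build and remodel the matrix. Serpinh1, a collagen chaperone, was at 2237 ± 72.9 CPM, and P4hb, a subunit of the enzyme that hydroxylates collagen, at 1538 ± 19.3 CPM. The protease inhibitors Timp1, Timp2 and Timp3 were at 507 ± 4.66, 230 ± 6.08 and 170 ± 15.7 RPKM, and the matrix metalloproteinase genes Mmp14 and Mmp2 at 128 ± 4.68 and 117 ± 5.96 RPKM. The lowest members were Fap, the fibroblast activation protein, at 1.27 ± 0.0589 RPKM and the metalloproteinase gene Mmp3 at 13.1, 7.07 and 7.56 RPKM. Mmp3 was also the most variable member, with a range of 1.82-fold on TMM-scaled CPM with 0.5 added, the scale of all ranges of single genes here. The median member was at 282 RPKM, against 5.80 RPKM over genes with a mean of at least 1 CPM. Of these 13056 genes, 269 had no matched length and were left out of that median.

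Progenitor genes were abundant. The platelet-derived growth factor receptor genes Pdgfra and Pdgfrb, which mark mesenchymal progenitors, were at 593 ± 40.1 and 519 ± 17.1 CPM. Thy1, a fibroblast surface marker, was at 1043 ± 26.0 CPM, Ly6a (Sca-1) at 332 ± 25.4 CPM and the limb and trunk mesenchyme factor Prrx1 at 788 ± 24.2 CPM. Dlk1, which holds preadipocytes back from differentiation, was at 103, 104 and 113 CPM. The lowest were Lepr, the leptin receptor gene, at 0.502 ± 0.0390 CPM and Dpp4 at 0.970 ± 0.0668 CPM. Osr2, a mesenchymal transcription factor, varied most, at 5.95, 4.56 and 3.36 CPM. The list summed to between 7580 and 7802 CPM in the 3 libraries.

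Macrophage genes were read across the whole list. The classical markers Itgam (CD11b), Csf1r (the receptor for colony-stimulating factor 1), Mrc1 (the mannose receptor) and Mpeg1 (perforin-2) were at 220 ± 11.7, 194 ± 11.8, 201 ± 13.6 and 281 ± 21.5 CPM. The complement genes C1qa, C1qb and C1qc were at 162 ± 11.6, 139 ± 7.39 and 69.8 ± 3.14 RPKM. The lineage factor Spi1 (PU.1) was at 19.7, 22.7 and 23.0 CPM, and the pan-leukocyte gene Ptprc (CD45) at 65.5, 81.1 and 74.0 CPM. Lyz2 held 49.0% of the list's sum, and without it the mean sum was 2906 CPM. The lowest member was Cd163, the haemoglobin scavenger receptor gene, at 0.728, 0.713 and 1.67 CPM. Csf1, the growth factor that macrophages need, was read at 361, 372 and 397 CPM.

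Contractile genes stood high per length. Acta2, at 1245, 1607 and 1496 RPKM, was followed by Tagln, Myl9 (a myosin light chain, 434 ± 43.1 RPKM), Tpm4 (a tropomyosin, 426 ± 26.9 RPKM) and Flna (filamin A, 372 ± 16.6 RPKM). Markers of mature smooth muscle were lower, with Cnn1 (calponin 1) at 66.9 ± 9.45 RPKM and Myh11 (smooth muscle myosin) at 17.1, 23.0 and 23.0 RPKM. The regulators Srf (serum response factor), Mkl1 and Mkl2 (its cofactors, also called Mrtfa and Mrtfb) were at 23.2 ± 1.04, 10.6 ± 0.338 and 6.36 ± 0.130 RPKM. Myocd (myocardin), the smooth muscle cofactor of Srf, was lowest at 0.367 ± 0.0413 RPKM. Ctgf and Cyr61, matricellular genes that respond to mechanical tension, were at 192 ± 26.3 and 225 ± 10.8 RPKM.

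Srf binds the CArG box, and 5 of the 23 contractile genes with a promoter window (Cnn2, Myl6, Myl9, Srf and Vcl) held that motif in the 250 bases before the start, against 1.44% of the 9969 genes at 1 CPM or more that had a window. Promoter windows came from RefSeq on GRCm38.p6, both strands were searched, a gene with several starts counted if any of its windows matched, and the 4 motifs tried were chosen after the data had been seen. The motif can overlap TATAAA, which was among the 4. A match describes letters only. The 100 bases before the starts of Srf (chr17:46556163-46556262, minus strand) and Cnn2 (chr10:79988500-79988599, plus strand), printed 5′ to 3′ with CArG boxes in capitals, show the motif of the regulator's own gene and of a contractile gene at 566 ± 20.4 CPM.
Srf: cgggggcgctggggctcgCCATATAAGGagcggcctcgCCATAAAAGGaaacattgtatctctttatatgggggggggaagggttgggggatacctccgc
Cnn2: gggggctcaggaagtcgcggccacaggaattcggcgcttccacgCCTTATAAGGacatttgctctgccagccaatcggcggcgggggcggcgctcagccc

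The adipocyte programme reached from transcription factors to the lipid droplet. Among adipogenic factors Cebpa, which sustains the fat cell state, was at 55.5, 30.8 and 48.0 CPM, and Pparg at 20.4, 10.9 and 19.4 CPM. The early factors Cebpb (16.5, 16.3 and 16.1 CPM) and Cebpd (28.3, 23.5 and 23.1 CPM) differed in spread, with ranges of 1.02 and 1.22-fold. Srebf1, a regulator of lipid synthesis, was at 134, 99.3 and 118 CPM, and Nr1h3, which encodes the liver X receptor α, at 13.9, 8.38 and 13.3 CPM. Replicate 2 was thus lowest for Cebpa, Pparg, Srebf1 and Nr1h3. Over the list it was lowest in 12 of 25 tested factors, against 36.9% of all tested genes. Xbp1 was the highest of the list at 158 CPM on average and Gata3, which restrains fat cell formation, the lowest at 0.535 CPM. Klf15 and Klf5, other factors of fat cell formation, were at 1.39 ± 0.265 and 1.46 ± 0.317 CPM.

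Of the genes that handle fatty acids, Fabp4 was at 269, 139 and 260 RPKM, Cd36 (a fatty acid transporter) at 149, 79.3 and 133 RPKM and Lpl (lipoprotein lipase) at 106, 57.6 and 94.3 RPKM. Per length, lipid droplet genes were led by Cidec, at 197, 72.7 and 160 RPKM (366, 135 and 297 CPM). Plin2, the perilipin of many cell types, was at 86.2, 61.8 and 78.3 RPKM (303, 217 and 275 CPM). Plin1, the perilipin of fat cells, was at 82.9, 36.2 and 70.0 CPM and Plin4 at 148, 63.4 and 121 CPM. The lipases Pnpla2, Lipe and Mgll, which release fatty acids from triglyceride in turn, were at 137 ± 49.3, 70.1 ± 25.2 and 131 ± 29.0 CPM. Gpd1, which supplies glycerol phosphate, was at 411, 155 and 371 CPM. In all of these genes replicate 2 was lowest, and replicates 1 and 3 lay closer to each other than to it.

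Among other secreted products of the fat cell, Lep (leptin) was at 2.95, 0.799 and 2.18 CPM, Retn (resistin) at 3.54, 0.864 and 4.05 CPM and Cfd (adipsin) at 1.64, 0.993 and 1.77 CPM. Slc2a4, the insulin-responsive glucose transporter, was at 4.93, 2.07 and 5.52 CPM. The 15 brown and beige fat genes in the files summed to 99.96, 57.9 and 91.3 CPM. Ucp1, the uncoupling protein, had 0.999, 0.324 and 1.30 CPM, Cidea 1.04, 0.432 and 1.12 CPM, and Dio2 0.680 ± 0.201 CPM. By CPM Elovl3, a fatty acid elongase of brown fat, was the highest of these genes, at 36.5, 12.0 and 28.5 CPM. The transcription factor genes Zic1 (16.9, 11.9 and 13.5 CPM) and Prdm16 (8.01, 7.10 and 6.09 CPM) followed on that scale. Per length Prdm16 was at 0.758 RPKM, under the list's median of 0.872 RPKM. The median of the 15 was 4.35 CPM. Within the adipocyte list, 28 of 31 neighbouring pairs in the order of RPKM had overlapping library values.

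**Figure D3:**
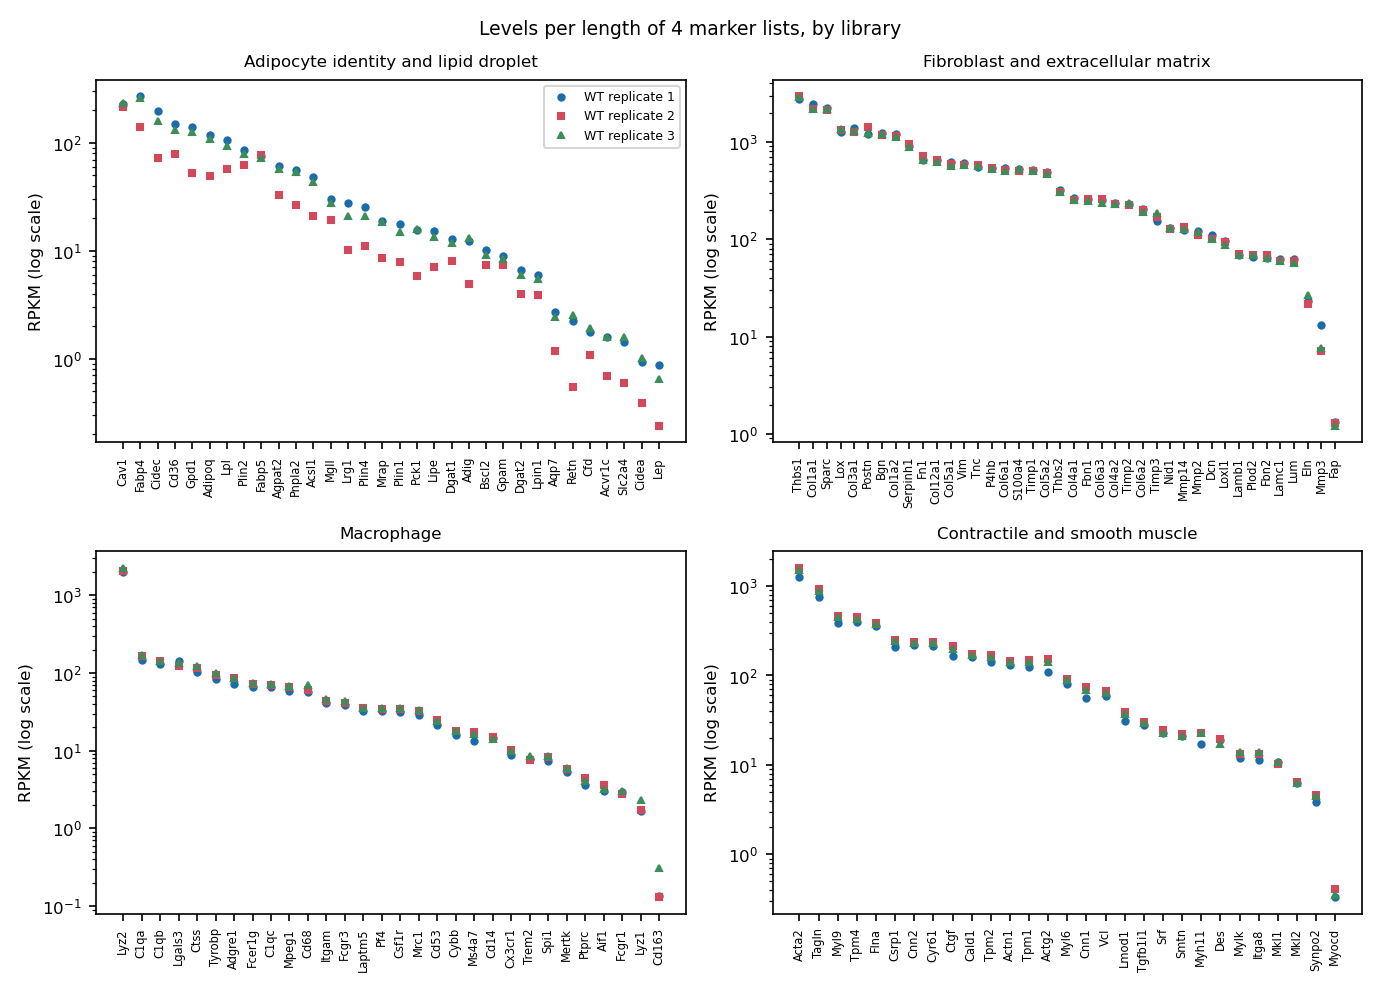
RPKM of each gene (vertical, log scale) in the 3 WT libraries for 4 marker lists, with genes ordered by their mean. In the adipocyte panel the red squares of replicate 2 lie below the other symbols for 30 of the 31 genes at 1 CPM or more, whereas in the fibroblast panel the symbols nearly coincide.

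Enzymes that make fatty acids were read throughout. Scd1 was at 3240, 1743 and 3029 CPM and Fasn, the fatty acid synthase, at 543, 381 and 490 CPM. Acly and Acaca, which provide the building blocks, were at 327 ± 23.7 and 191 ± 37.0 CPM. Scd2, the desaturase of many tissues, was at 1284, 1090 and 1143 CPM. In this list the genes with the widest range were Elovl3, Thrsp (3.72, 1.12 and 4.27 CPM), Gpat3 (21.7, 8.96 and 19.01 CPM) and Mlxipl (2.98, 1.19 and 2.22 CPM). By contrast the elongases Elovl1 and Elovl5 and the desaturase Fads1 had ranges of 1.06, 1.05 and 1.05-fold.

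To measure how far the 3 WT libraries differed, each gene with a mean of at least 1 CPM was tested against counting noise with edgeR (Poisson likelihood ratio, Benjamini-Hochberg adjusted p under 0.05). This test compares these libraries and says nothing of a condition. Of 13056 genes, 4429 (33.9%) differed by more than counting noise. In 87 of them (0.666% of those tested) the highest library was also at least 2 times the lowest, on CPM scaled by TMM factors with 0.5 added. The median range was 1.0866-fold. The common biological coefficient of variation, the spread left after counting error, was 6.36%. Without replicate 2 this coefficient was 4.16% and 2068 genes differed beyond counting noise, and without replicate 1 the number of such genes was 2505. Of the 86 genes at 1000 CPM or more, 96.5% differed beyond counting noise and 0 had a 2-fold range, whereas 58 of the 3591 genes between 1 and 10 CPM did (1.62%).

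The wide ranges shared a direction. In 81 of the 87 genes replicate 2 was lowest (0.62% of genes tested), in 2 replicate 1 (0.0153%) and in 4 replicate 3 (0.0306%). Replicate 1 was highest in 59 of them (0.452%), replicate 3 in 24 (0.184%) and replicate 2 in 4 (0.0306%). Over all tested genes replicate 2 was lowest in 36.9%, replicate 1 in 36.7% and replicate 3 in 26.4%. Replicates 1 and 2 differed by over 2-fold in 76 genes, replicates 2 and 3 in 49 and replicates 1 and 3 in 2. Without replicate 2, 3 genes had such a range in place of 87. Without replicate 1 the number was 47 and without replicate 3 it was 70. Replicate 2 also had the fewest gene reads, and the part of depth in its values was not tested.

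**Figure D4:**
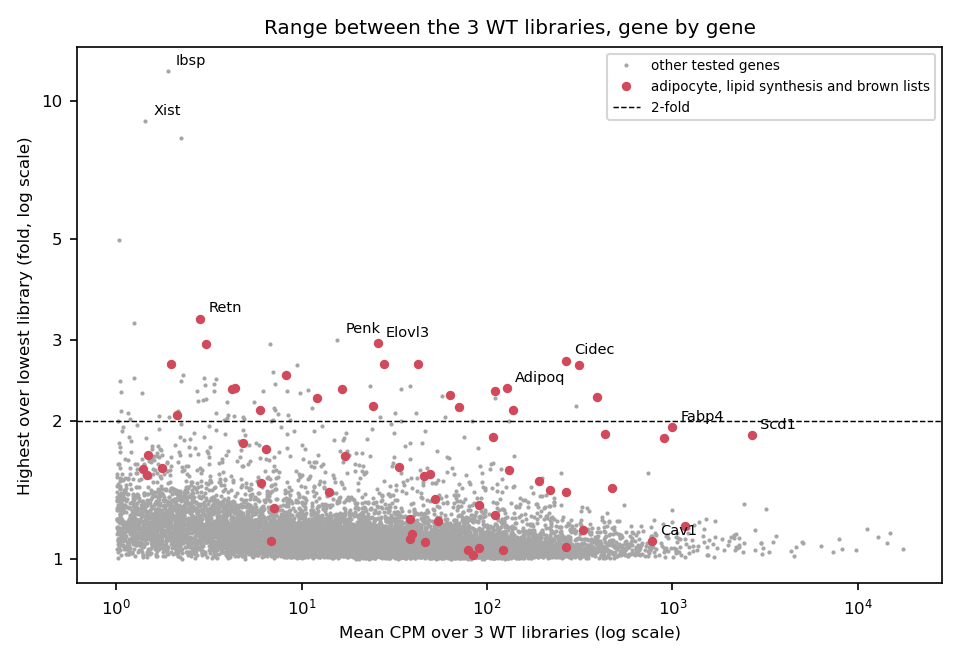
Highest over lowest WT library (vertical, fold, log scale) against mean CPM (horizontal, log scale) for the 13056 genes tested, with the adipocyte, lipid synthesis and brown fat lists in red and a dashed line at 2-fold. Many red points lie above the line up to Acsl1 at 392 CPM, Scd1 and Fabp4 lie just under it, and Ibsp and Xist have the highest ranges at low CPM.

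The adipocyte, lipid synthesis and brown fat lists held 22 of the 87, 3 were in other lists only (Ibsp, Xist and Orm1) and 62 in none. In the adipocyte list 17 of 31 tested genes had a 2-fold range, against 0.666% of all genes. All 31 differed beyond counting noise, against 33.9% of all genes, and 30 had replicate 2 lowest, against 36.9% of all tested genes. The median range of the list was 2.12-fold and its sum was 6827, 3949 and 6313 CPM, a ratio of 1.73 that was 1.08 without replicate 2. The lipid synthesis list had 4 of 21 tested genes with a 2-fold range and 18 with replicate 2 lowest, and the brown fat list 2 of 11 (Elovl3 and Adrb3) and 9. Since Elovl3 stands in both of these lists, their counts are not independent.

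At a mean of at least 5 CPM the genes with the widest ranges were Penk, Elovl3, Ces1d, Cidec, Lrg1, Pck1, Gpd1, Lgals12, Klhdc7a and Adig, and in all of them replicate 2 was lowest. Penk, which encodes the opioid precursor proenkephalin, was at 12.9, 8.18 and 25.6 CPM, a range of 3.01-fold, with replicate 3 rather than replicate 1 highest. Cidec ranged 2.71-fold, Pck1 (phosphoenolpyruvate carboxykinase, 53.0, 20.1 and 54.2 CPM) 2.66-fold and Gpd1 2.65-fold. Lgals12, a galectin of the lipid droplet, was at 12.8, 4.53 and 10.97 CPM. Ces1d, a carboxylesterase of fat and liver, was at 8.09, 2.81 and 9.22 CPM. The edgeR adjusted p was 4.17e-106 for Penk and 1.19e-40 for Ces1d.

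Of the 62 genes in none of the lists, 6 that are known from fat cells were chosen after their values were seen and do not stand for the rest. Hp (haptoglobin) was at 378, 175 and 352 CPM, Pcx (pyruvate carboxylase) at 144, 64.2 and 124 CPM and Car3 (carbonic anhydrase 3) at 61.9, 33.3 and 75.9 CPM. Klb, the coreceptor for FGF21, was at 13.2, 5.46 and 10.7 CPM and Tshr, the thyrotropin receptor, at 15.1, 6.82 and 12.3 CPM. Plin5, another perilipin, was at 8.97, 4.21 and 7.72 CPM. In each of these replicate 2 was lowest, and replicates 1 and 3 lay closer to each other than to it. The 6 of 87 genes without replicate 2 as the lowest were Ibsp, Xist, Lrmda, Pira2, Asb5 and Ceacam1, of which only Pira2 (7.14, 10.5 and 4.80 CPM) reached 5 CPM.

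Among adipogenic regulators, 0 of 25 tested factors had a 2-fold range, against 0.666% of all genes, and 14 differed beyond counting noise, against 33.9%. The widest were Pparg at 1.84-fold (edgeR adjusted p = 8.85e-35), Cebpa at 1.80-fold and Nr1h3 at 1.63-fold. Cebpb ranged 1.02-fold and the glucocorticoid receptor gene Nr3c1 1.03-fold. The median range of the list was 1.18-fold, against 2.12-fold in the adipocyte list and 1.0866-fold over all genes tested. A difference in range between factors and targets was not tested.

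Fat genes with narrow ranges stood in the same lists. Cav1 (caveolin 1, of fat cells and fibroblasts alike) was at 789, 739 and 804 CPM and Fabp5 at 271, 275 and 257 CPM. Gpam, the first enzyme of glycerolipid synthesis, was at 59.1, 48.9 and 55.7 CPM. Their ranges were 1.09, 1.07 and 1.21-fold. Fabp5 was the single adipocyte gene of the 31 in which replicate 2 was not lowest.

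TTGCNNAA, which holds the core of the C/EBP site, lay in the 250 bases before the start of 13 of the 51 genes with a 2-fold range that had a window (25.5%), against 9.1% of genes at 1 CPM or more and 9.56% of all windows. In the adipocyte list the motif was in 3 of 23 (13.0%), namely Cidec, Lep and Plin1. TATAAA was in 12 of the 51 (23.5%) and in 7.85% of genes at 1 CPM or more. These shares are descriptions without a test. The 100 bases before the starts of Lep (chr6:29060121-29060220, plus strand) and Plin1 (chr7:79732777-79732876, minus strand), 5′ to 3′ with the motif in capitals, are shown because both genes had a 2-fold range.
Lep: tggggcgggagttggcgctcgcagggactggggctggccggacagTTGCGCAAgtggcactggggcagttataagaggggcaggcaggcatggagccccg
Plin1: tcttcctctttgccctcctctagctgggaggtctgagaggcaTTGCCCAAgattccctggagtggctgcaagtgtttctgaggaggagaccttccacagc

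In the contractile, macrophage, cholesterol and proliferation lists 0 genes had a 2-fold range, against 0.666% of all genes, so these lists are described by the order of the libraries. In the contractile list 27 of 29 genes had replicate 1 lowest, against 36.7% of all tested genes. In 25 replicate 2 was highest, 0 had a 2-fold range, and the sum was 16711, 19531 and 18645 CPM. Of all tested genes, 23.1% had replicate 2 highest and replicate 1 lowest, and 13.7% replicate 2 highest and replicate 3 lowest. Actg2 (enteric actin, 172, 238 and 218 CPM) was the most variable, at 1.38-fold. Of its 26 genes beyond counting noise, 25 had replicate 1 lowest and 23 replicate 2 highest, against 1688 and 1740 of all 4429 such genes. In the macrophage list 25 of 30 had replicate 1 lowest, against 36.7% of all tested genes, and 23 had replicate 3 highest. Of all tested genes, 13.6% had replicate 3 highest and replicate 1 lowest, and 15.0% replicate 3 highest and replicate 2 lowest. Of the 30, 0 had a 2-fold range, and the sum was 5320, 5709 and 6056 CPM. Beyond counting noise 21 of the 30 had replicate 1 lowest and 19 replicate 3 highest, against 12.9% and 7.75% of all tested genes. The base of these percentages includes genes that failed the noise test, which only 33.9% of all tested genes passed. Of the 24 macrophage genes that passed, 21 had replicate 1 lowest and 19 replicate 3 highest. Among all 4429 genes that passed, the numbers were 1688 and 1012. Adgre1 differed 1.18-fold. Whether the contractile and macrophage levels bear on the fat genes of replicate 2 was not tested.

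Cholesterol synthesis genes followed the fat genes in order but not in size. In 20 of 23 genes replicate 2 was lowest, against 36.9% of all tested genes. In 23 replicate 1 was highest, and 0 had a 2-fold range. Of all tested genes, 21.9% had replicate 1 highest and replicate 2 lowest, and 12.7% replicate 1 highest and replicate 3 lowest. Of the 22 genes beyond counting noise, 19 had replicate 2 lowest and 22 replicate 1 highest, against 1832 and 1677 of all 4429 such genes. Insig1, a sterol sensor, was widest at 169, 125 and 157 CPM (1.36-fold). CCAAT, the site of NF-Y, lay in the 250 bases before the start of all 15 members with a window, against 40.7% of genes at 1 CPM or more and 33.8% of all windows. The most abundant member, Cyp51 (203, 184 and 189 CPM), is shown by the 100 bases before its start (chr5:4104698-4104797, minus strand), 5′ to 3′ with CCAAT in capitals.
Cyp51: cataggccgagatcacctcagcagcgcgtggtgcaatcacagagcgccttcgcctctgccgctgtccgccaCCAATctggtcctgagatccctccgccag

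Proliferation genes were still read on day 6. Mki67 was at 223, 243 and 200 CPM, Top2a at 171, 193 and 161 CPM and Ccna2 (cyclin A2) at 42.4, 49.9 and 39.4 CPM. Of 35 genes 30 had replicate 3 lowest, against 26.4% of all tested genes, and 28 had replicate 2 highest. A 2-fold range was found in 0, and the median range was 1.16-fold. Of all tested genes, 23.1% had replicate 2 highest and replicate 1 lowest, and 13.7% replicate 2 highest and replicate 3 lowest. Beyond counting noise 24 of the 35 had replicate 3 lowest and 24 replicate 2 highest, against 6.96% and 13.3% of all tested genes. Here too the base of the percentages includes genes that failed the noise test. Of the 26 proliferation genes that passed, 24 had replicate 3 lowest and 24 replicate 2 highest. Among all 4429 genes that passed, the numbers were 909 and 1740. CCAAT was found in 22 of the 28 members with a window (78.6%), against 40.7% of genes at 1 CPM or more and 33.8% of all windows. Among inhibitors of the cell cycle Cdkn1a (p21) was at 438, 415 and 439 CPM and Cdkn2a at 41.9, 35.8 and 42.4 CPM. Replicate 2, which was lowest for the fat genes, was highest for most proliferation and contractile genes, and the relation between them was not tested.

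**Figure D5:**
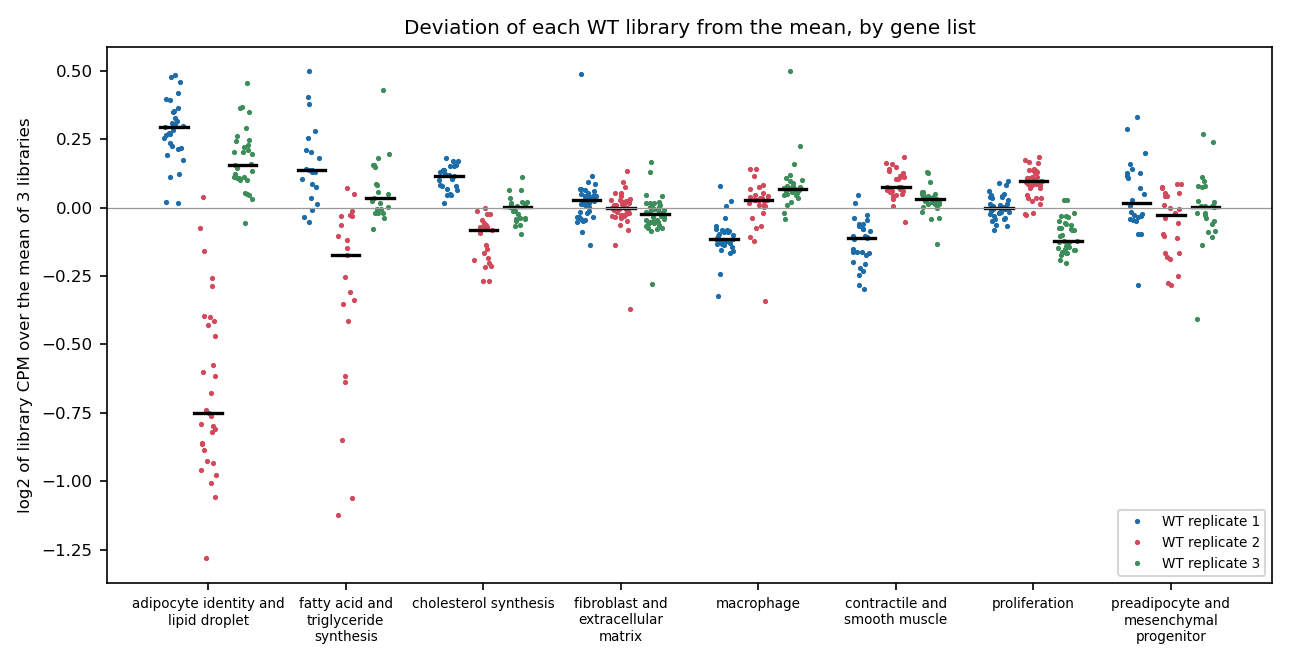
Log2 of each gene's CPM in a library over its mean in the 3 WT libraries (0.5 added to both), for genes at 1 CPM or more in 8 lists; black bars are medians and the grey line is no deviation. The median of replicate 2 is -0.75 in the adipocyte list and -0.17 in the lipid synthesis list, and between -0.02 and 0.03 for the 3 libraries in the fibroblast list.

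In the fibroblast list the median range was 1.06-fold, against 1.0866-fold over all genes tested, and the sum differed 1.03-fold between libraries. By edgeR and the range rule 0 of its 40 genes had a 2-fold range, against 0.666% of all genes. Beyond counting noise 38 of them differed, against 33.9% of all genes, but abundant genes pass this test more often. Of tested genes between 100 and 1000 CPM 66.2% passed, and of those at 1000 CPM or more 96.5%. The median of the list was 1779 CPM, with 38 genes at 100 CPM or more. For the list of genes known to respond to glucocorticoid and cAMP the median range was 1.0856-fold. Their response to the cocktail was not measured here. Of 23 tested genes 11 differed beyond counting noise, against 33.9% of all genes. Replicate 2 was lowest in 13 of the 23, against 36.9% of all tested genes. Tsc22d3 and Pde4b were chosen for their close values, at 66.9, 66.6 and 66.7 CPM and at 61.0, 60.3 and 59.8 CPM. Fkbp5 was at 61.9, 67.3 and 66.2 CPM. In that list Orm1, an acute-phase protein, was the 1 of 23 genes with a 2-fold range, against 0.666% of all genes, at 4.41, 1.55 and 3.05 CPM.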

How the data were processed

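Raw counts of reads per Ensembl gene, as deposited by the authors, were used for the 3 WT libraries. Per the submitters' processing notes reads were handled with HTSeq 0.5.4, Bowtie2 2.1.0, TopHat2 2.0.9, DESeq and FastQC on mm9 and NCBIM37. For the counting mode and strand, a setting is not given in the sources used here. Per the labels' protocols libraries came from 280 ng RNA (TruSeq v2, 12 PCR cycles), read from 1 end for 51 cycles in 7 lanes. Lines that name no gene (between 24.3% and 24.4% of a file) were left out. Reads that map to several places are therefore missing. Symbols matched 32938 of 37991 identifiers. CPM, RPKM, TMM factors (0.998 to 1.002) and tests were computed with edgeR 4.0.16 in R 4.3.3. Replicates differed beyond sampling noise in each pair. Promoters came from RefSeq on GRCm38.p6.

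The 32 gene lists (578 of 583 entries found) and the tests were chosen with earlier results of these data known, and the promoter motifs after the data had been seen. Named are the 25 highest genes by CPM and by RPKM, the 10 widest ranges at 5 CPM or more for each highest or lowest library, list members that lead, end, vary most or define a cell type, and the targets. Other list members given with values were chosen after their values were seen. The steps were tested on simulated data. Alternatives were RLE, upper-quartile and no factors, other filters, DESeq2 1.42.0 dispersions and each library left out.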

Additional observations from a re-analysis of the deposited data

How the results depend on the processing

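Of 99 alternative values, 82 stayed and 17 moved, where moving means a change of over 1.5 times for a count of genes past the test or the range, of over 10% for a ratio or coefficient, and of over 1 SD between libraries for a level, a share or the number of genes detected. Leaving out each library gave between 2068 and 3999 genes beyond counting noise and between 3 and 70 with a 2-fold range, and a coefficient of variation between 4.16% and 8.06%; the lowest values came without replicate 2. The same step gave ratios of highest to lowest sum between 1.08 and 1.73 for the adipocyte list and between 1.05 and 1.17 for the contractile list. At a mean of 5 CPM 45 genes had a 2-fold range, and 327 had a 1.5-fold range. With CPM plus 0.1 the number was 114, with no filter 101, and with RLE, total or upper-quartile scaling 83, 85 and 81. At least 10 reads were found for 15690.7 genes in place of 1 CPM for 13055.7. Without mitochondrial genes the first 100 genes took 26.8%. Without their most abundant member, the sums were 137980 CPM (fibroblast), 2906 (macrophage) and 14796 (contractile). By longest transcript Pparg was at 7.96 RPKM and Col1a1 at 2522 RPKM. No cause of these shifts was tested. No paired analysis was possible because the 3 libraries form 1 group. Genes near 1 CPM rest on few reads, so their ranges carry more counting error.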

Other observations

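Genes that record the place of origin in the body were read as well. The trunk and limb genes Tbx15 (145, 143 and 133 CPM), Hoxb9 (58.1, 69.7 and 61.7 CPM), Hoxc8 (38.3, 37.9 and 40.5 CPM), Hoxc6 (32.5, 30.9 and 32.6 CPM) and Hoxa10 (29.4, 26.4 and 26.8 CPM) were the highest of 45, and Tbx5 (forelimb) and Tbx4 (hindlimb) were at 2.94 ± 0.467 and 2.44 ± 0.560 CPM. The posterior genes Hoxa13 and Hoxd13 were at 0.365 ± 0.254 and 0.433 ± 0.205 CPM. Of 35 tested genes 0 had a 2-fold range, against 0.666% of all genes.

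The list of growth factors had a median of 83.2 CPM and that of chemokines and cytokines 12.7 CPM over all members in the files, against 26.3 CPM over the genes tested. The imprinted pair H19 (2417, 2107 and 2762 CPM) and Igf2 (insulin-like growth factor 2; 754, 576 and 886 CPM) were both lowest in replicate 2 and highest in replicate 3. Igfbp5, Igfbp7 and Igf1 were at 1460 ± 92.5, 583 ± 21.2 and 300 ± 7.97 CPM. Among chemokine genes Cxcl12 was at 331, 293 and 327 CPM, Ccl2 at 119, 109 and 123 CPM, Cxcl5 at 225, 150 and 220 CPM and Ccl11 (eotaxin) at 25.7, 14.9 and 22.5 CPM. The inflammatory cytokine genes Il1b and Tnf were at 0.172 ± 0.0255 and 3.84 ± 0.367 CPM.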
